A study of Homo sapiens with 6 samples.

Results

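The genes described here encode 10 amino acid transporters of the plasma membrane: SLC1A4, SLC1A5, SLC3A2, SLC7A1, SLC7A5, SLC7A6, SLC7A11, SLC38A1, SLC38A2 and SLC38A5. They were taken by name from the 44591 genes listed for each library, and all 10 were found. RNA-seq was performed on A2780, an established human ovarian cancer cell line with the genotype given as WT, grown in DMEM with fetal bovine serum. There were 3 untreated libraries and 3 libraries from cells that received 40 ng/ml of recombinant human CRMP2 (r-CRMP2) in the medium for 48 h. CRMP2 is a cytoplasmic phosphoprotein known for its binding to tubulin, and the study asked how the protein, when added outside the cell, acts on ovarian cancer cells. The samples are labelled as replicates without a statement that they came from separate cultures, so the p-values measure the spread between these libraries, which may be technical.

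Cells take up most amino acids through solute carriers with overlapping substrates. SLC3A2 is the heavy chain that brings light chains of the SLC7 family to the membrane, where the pair exchanges one amino acid for another. SLC1A4, SLC1A5 and the SLC38 carriers listed above move small neutral amino acids, and several of them carry glutamine. Such carriers can supply the amino acids that exchangers such as LAT1 give out in return for leucine. Genes of this kind are known targets of ATF4, the transcription factor of the amino acid response, and several are known to respond to MYC and NFE2L2.

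Between 21888530 and 25711353 reads were counted per library, and each transporter had between 144 and 47282 counts in a library. Levels are given as CPM, which scales counts to a common library total corrected by TMM factors, when a gene is compared between libraries, and as TPM, which also divides by gene length, when genes are compared with each other. The keratins of epithelial cells were abundant, at 1362 TPM for KRT8 and 1986 TPM for KRT18 in the untreated libraries. Other epithelial and ovarian markers were low or nearly absent in the untreated libraries, with means of 6.30 TPM for EPCAM, 2.44 TPM for PAX8, 2.38 TPM for MUC16, 0.0622 TPM for CDH1 and 0.0541 TPM for WT1. A2780 cells thus carried keratin transcripts but few of the other lineage markers. The summed level of 7 fibroblast markers lay between 206 and 243 TPM in untreated and between 140 and 152 TPM in r-CRMP2 libraries. Most of it was COL1A1, and FAP averaged 0.228 TPM in the untreated libraries. The fibroblast markers did not move together: of 6 tested as below, 2 were higher, 2 lower and 2 not called. Their median log2 fold change was 0.25, and of all genes tested 28.2% were called higher and 30.1% lower. The summed level of 3 immune markers was between 0.603 and 0.942 TPM in untreated and between 0.0504 and 0.183 TPM in r-CRMP2 libraries, with CD3E at 0 in the treated ones. The endothelial pair PECAM1 and CDH5 summed to between 3.36 and 3.75 TPM in untreated and between 0.496 and 1.05 TPM in r-CRMP2 libraries. All libraries are labelled as the A2780 cell line, and none of the 3 immune markers had enough counts to be tested. The part of these markers in the results below was not tested, and in bulk RNA fewer cells of a type and less RNA per cell cannot be told apart.

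With r-CRMP2, the transporter transcripts moved in both directions. SLC3A2 and its partner SLC7A5 rose, the other 7 light chains and carriers that were called fell, and the cationic transporter SLC7A1 did not pass, with a direction that changed with the scaling. Thus 2 of the 10 genes were higher and 7 lower at a Benjamini-Hochberg adjusted p-value under 0.05 in the quasi-likelihood test of edgeR, which gives every edgeR adjusted p below. Of all 16222 genes tested, 28.2% were called higher, 30.1% lower and 58.2% either way. The 7 falls of 10 are above that background and the 2 rises are slightly below it, and no test was made of either share. These genes and the gene lists below were chosen with earlier results of these data known, which can itself move such shares. When a log2 fold change beyond 1 was also required, SLC7A6 and SLC7A11 remained, both lower, against 8.86% of all genes lower and 5.12% higher by that rule. The median log2 fold change was -0.33 over the 10 transporters and -0.03 over all genes tested. For 2 transporters every r-CRMP2 library exceeded every untreated one and for 7 every one was below, which held for 30.9% and 33.3% of all genes tested. The scaling bears on these directions: when library size alone replaced TMM, the median of all genes was -0.34, and 2171 genes were called higher and 8449 lower instead of 4574 and 4875. A change of scaling shifts all genes by nearly the same amount. Relative to the median of all genes, the change of each transporter was therefore almost the same by construction, for example 0.37 for SLC7A5. This does not settle which scaling is right.

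**Figure D1:**
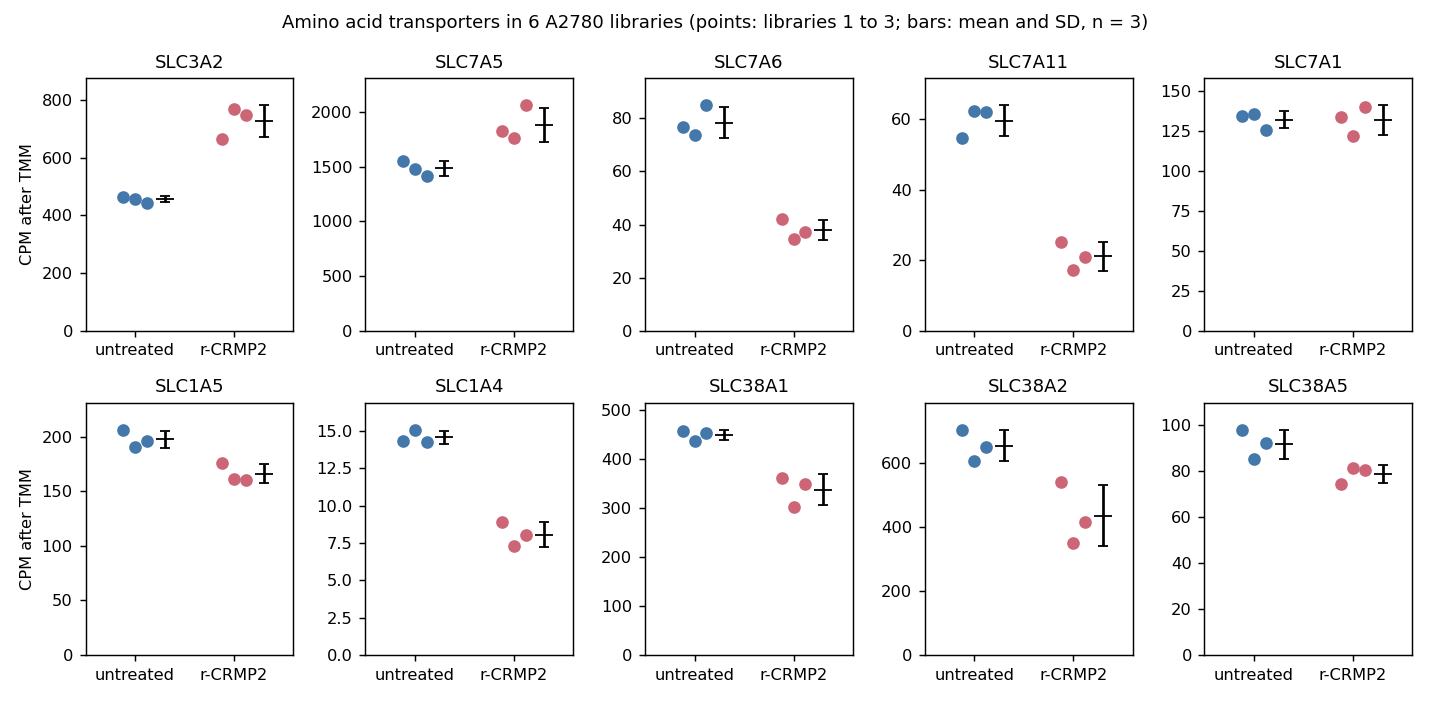
Level of each of the 10 transporters in CPM after TMM scaling (vertical axes, each starting at 0) in the 3 untreated (blue) and 3 r-CRMP2 (red) libraries, with the mean and SD as black bars. The treated points lie above the untreated ones for SLC3A2 and SLC7A5, overlap them for SLC7A1 and lie below them in the other 7 panels.

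The upstream sequences of the light chains SLC7A5 and SLC7A6 are shown first, because both proteins pair with SLC3A2 and carry overlapping substrates while their transcripts moved in opposite directions. Each is the stretch of 250 bases before the RefSeq transcription start in GRCh38.p14, written 5' to 3' on the strand of the gene. For SLC7A5 it is chr16:87869508-87869757 on the minus strand, and for SLC7A6 it is chr16:68264276-68264525 on the plus strand. Capitals mark every match that lies wholly within the stretch, on either strand, to 4 short motifs. TGATGNAA is the core of the ATF4 type of amino acid response element, and CACGTG is the E-box that MYC binds. ACGTG is the core bound by hypoxia-inducible factors, which every CACGTG contains on both strands. TGACNNNGC is the antioxidant response core.
SLC7A5: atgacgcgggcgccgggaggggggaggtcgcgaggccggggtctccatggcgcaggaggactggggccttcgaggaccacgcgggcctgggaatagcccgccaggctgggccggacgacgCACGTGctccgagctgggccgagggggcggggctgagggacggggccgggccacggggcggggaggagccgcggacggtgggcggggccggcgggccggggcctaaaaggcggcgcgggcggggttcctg
SLC7A6: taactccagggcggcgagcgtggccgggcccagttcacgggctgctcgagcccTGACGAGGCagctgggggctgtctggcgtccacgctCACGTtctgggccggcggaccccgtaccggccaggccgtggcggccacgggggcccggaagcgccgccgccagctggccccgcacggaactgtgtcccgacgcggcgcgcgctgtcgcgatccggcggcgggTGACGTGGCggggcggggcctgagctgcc
SLC7A5 held 1 CACGTG in this stretch. It also has a TGACNNNGC match that begins at position -2 and runs past the start, so it is not in capitals. SLC7A6 held 2 matches to ACGTG, 1 of them inside a TGACNNNGC match, and a second TGACNNNGC match. Neither held TGATGNAA.

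Windows of 250 bases before and 50 bases after a RefSeq start were matched for 9 of the 10 transporters, SLC7A11 not among them, with 15 windows in all. The shares below therefore leave out SLC7A11. TGATGNAA occurred in 5 of the 15 windows, those of 5 of the 9 genes, and in 3.62% of all 35116 windows, those of 4.46% of all genes. The matches are shown with the bases around them, because this motif is the one tied to the amino acid response and because they stand in genes that moved in different directions. No test was made of these shares. Capitals mark the match, and position 1 is the first base of the transcript whose start defines that window.
SLC3A2: gcaggactccTTACATCAgctcc
SLC7A1: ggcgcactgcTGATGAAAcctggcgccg
SLC1A4: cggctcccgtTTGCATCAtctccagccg
SLC1A5: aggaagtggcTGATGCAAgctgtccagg
SLC38A1: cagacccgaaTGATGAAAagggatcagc
They lie in GRCh38.p14 at chr11:62881726-62881748 on the plus strand for SLC3A2, with the match beginning at position 38, and at chr13:29595664-29595691 on the minus strand for SLC7A1, at position 8. The one of SLC1A4 lies at chr2:64989382-64989409 on the plus strand, at position -7. Those of SLC1A5 and SLC38A1 lie on the minus strand at chr19:46784894-46784921 and chr12:46266503-46266530, at positions -97 and -4. Of these 5 genes, SLC3A2 rose, SLC7A1 was not called and SLC1A4, SLC1A5 and SLC38A1 fell, so the match did not go with 1 direction. CACGTG occurred in the windows of SLC7A5, SLC1A5 and SLC38A5, 3 of the 9 genes against 8.78% of all genes, and of these SLC7A5 rose and the others fell. ACGTG was found for 6 of the 9 genes against 24.9% of all genes, and TGACNNNGC for 5 of 9 against 16.1%. A gene with several starts has several windows and so more places for a match. By window, CACGTG occurred in 3 of 15 against 7.26% of all windows. ACGTG occurred in 6 of 15 against 21.4%, and TGACNNNGC in 5 of 15 against 13.35%. A match is a string of letters and not an observed binding site.

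SLC3A2 (chromosome 11, 62623484 to 62656355 in the deposited hg19 coordinates), the heavy chain also known as CD98hc, had the largest rise of the 10. Its level was 465, 456 and 443.5 CPM in untreated libraries 1 to 3 and 663, 767 and 746 CPM in r-CRMP2 libraries 1 to 3. The treated libraries all lay well above the untreated ones. SLC3A2 rose from 455 ± 10.7 to 725 ± 55.1 CPM (mean ± SD of 3 libraries each), a log2 fold change of 0.67 (standard error, SE, 0.07, edgeR adjusted p = 5.77e-08). With library size alone, its log2 fold change was 0.36 and still passed (edgeR adjusted p = 1.98e-05).

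SLC7A5 (chromosome 16, 87863622 to 87903105), which encodes LAT1, the exchanger for leucine and other large neutral amino acids, was the other gene that rose. It measured 1553, 1481 and 1413 CPM in the untreated libraries and 1829, 1760 and 2059 CPM in the r-CRMP2 libraries. The groups did not overlap, and the third treated library stood highest. The means were 1483 ± 70.0 and 1883 ± 156 CPM (mean ± SD of 3 libraries each), with a log2 fold change of 0.34 (SE 0.08, edgeR adjusted p = 0.000307). This call rested on the scaling: with library size alone the log2 fold change of SLC7A5 was 0.03 (edgeR adjusted p = 0.632). Pseudogene copies of SLC7A5 share sequence with it, with stretches of 537 bases at 96.6% identity in SLC7A5P1 and 536 bases at 96.3% in SLC7A5P2. SLC7A5P2 had a log2 fold change of 1.49 (edgeR adjusted p = 7.88e-09) and its counts were 0.381% of those of SLC7A5 in untreated and 0.839% in r-CRMP2 libraries. For SLC7A5P1 the value was -0.29 (adjusted p = 0.435). SMG1P3 also held 604 bases at 95.7% identity and AC126696.2 held 271 bases at 100%. Reads from such copies could be assigned to either gene, though the share of the named copies was small. A transcript on the opposite strand (ENSG00000260466.1) and MIR6775 overlap SLC7A5 with between 0 and 10 counts per library.

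SLC7A6 (chromosome 16, 68298419 to 68335726) encodes y+LAT2, which exports arginine in exchange for neutral amino acids and sodium. Its values were 76.6, 73.7 and 84.9 CPM in untreated and 42.1, 34.4 and 37.2 CPM in r-CRMP2 libraries. The highest treated library was far below the lowest untreated one. SLC7A6 fell from 78.4 ± 5.81 to 37.9 ± 3.92 CPM (mean ± SD of 3 libraries each), with a log2 fold change of -1.05 (SE 0.10, edgeR adjusted p = 2.1e-09). Its value was close to the fold change threshold and lay between -1.12 and -0.97 when 1 library was left out. SLC7A6OS overlaps SLC7A6 by 1209 bases on the opposite strand in the deposited positions, and the library kit does not mark strand. In the GENCODE transcripts SLC7A6 shares a longer stretch with SLC7A6OS, 3373 bases at 100% identity, and 378 bases at 100% with AC020978.9. SLC7A6OS had 25.9% of the counts of SLC7A6 in untreated and 33.8% in r-CRMP2 libraries and fell too, with a log2 fold change of -0.66 (edgeR adjusted p = 5.88e-06), so the reads of these genes cannot be told apart in the shared stretches.

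SLC7A11 (chromosome 4, 139085248 to 139163503), which encodes xCT, the cystine and glutamate exchanger that supplies cysteine for glutathione, had the largest fall of the 10. It measured 54.7, 62.3 and 62.0 CPM in untreated and 25.2, 17.1 and 20.9 CPM in r-CRMP2 libraries. Every treated library was far below every untreated one. The means were 59.6 ± 4.32 and 21.1 ± 4.03 CPM (mean ± SD of 3 libraries each), and the log2 fold change was -1.50 (SE 0.17, edgeR adjusted p = 4.83e-10). When each library was left out in turn, the value lay between -1.63 and -1.36. The antisense gene SLC7A11-AS1 overlaps SLC7A11 by 14084 bases, shares 694 bases of transcript sequence with it at 99.9% identity and had 1.62% of its counts in untreated and 6.56% in r-CRMP2 libraries, with a log2 fold change of 0.52 that did not pass (edgeR adjusted p = 0.172).

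SLC7A1 (chromosome 13, 30083551 to 30169825) encodes CAT1, a carrier of arginine, lysine and ornithine that works without SLC3A2. It measured 133.9, 135.4 and 125.6 CPM in untreated libraries and 133.6, 121.5 and 139.5 CPM in r-CRMP2 libraries. The treated values spanned the untreated ones. The means were 131.6 ± 5.30 and 131.5 ± 9.18 CPM (mean ± SD of 3 libraries each), and SLC7A1 did not pass the test (log2 fold change -0.00051, SE 0.07, edgeR adjusted p = 0.995). With library size alone its log2 fold change was -0.31 and passed (edgeR adjusted p = 0.00067), so the direction for SLC7A1 follows from the scaling.

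**Figure D2:**
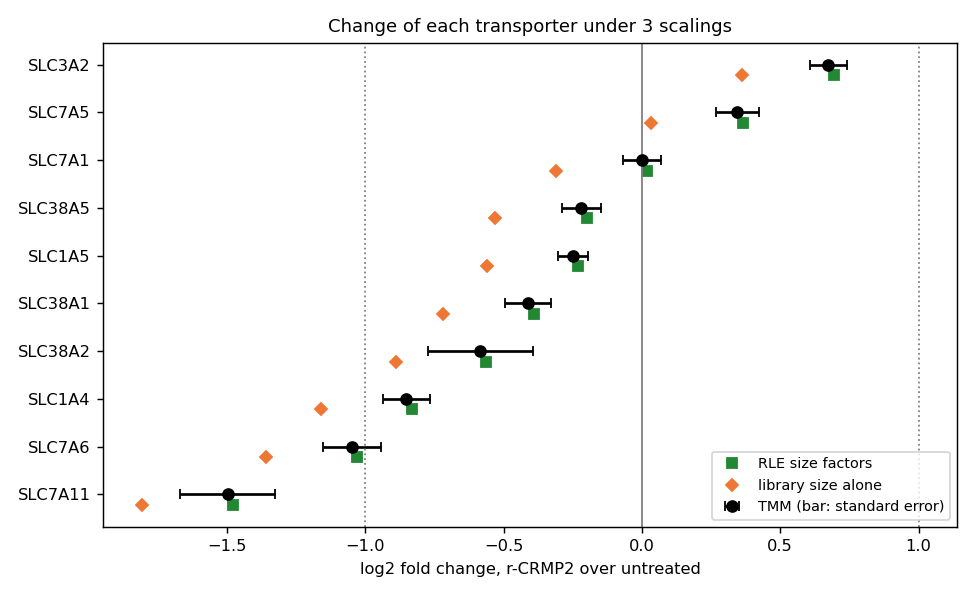
Log2 fold change (horizontal axis, r-CRMP2 over untreated) of each transporter with TMM (black, bars show the standard error), RLE size factors (green) and library size alone (orange), with dotted lines at 1 and -1. With library size alone every value is about 0.31 lower, which brings SLC7A5 to 0.03 and SLC7A1 to -0.31.

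The SLC1 pair fell, and the less abundant of them by more. SLC1A5 (chromosome 19, 47278140 to 47291842) encodes ASCT2, a sodium-dependent exchanger best known for glutamine uptake in cancer cells. It measured 206, 190.6 and 196 CPM in untreated and 176, 161.6 and 160.7 CPM in r-CRMP2 libraries. The groups lay apart by a small gap. SLC1A5 had a log2 fold change of -0.25 (SE 0.05, edgeR adjusted p = 0.00211), with means of 198 ± 8.04 and 166 ± 8.71 CPM (mean ± SD of 3 libraries each). A transcript of AC008622.2 shares 780 bases at 100% identity with SLC1A5, so reads there are uncertain. SLC1A4 (chromosome 2, 65215579 to 65250999), which encodes ASCT1, a carrier of serine, alanine and cysteine, measured 14.3, 15.1 and 14.3 CPM in untreated libraries and 8.89, 7.28 and 8.01 CPM in r-CRMP2 libraries. The treated libraries were all clearly lower. SLC1A4 fell from 14.6 ± 0.439 to 8.06 ± 0.808 CPM (mean ± SD of 3 libraries each), a log2 fold change of -0.85 (SE 0.09, edgeR adjusted p = 2.49e-06).

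The 3 transporters of the SLC38 family, which move small neutral amino acids together with sodium, all fell. SLC38A2 (chromosome 12, 46751971 to 46766645) encodes SNAT2, the system A carrier that is known to be induced when amino acids are scarce. It was at 704, 608 and 649 CPM in untreated libraries and at 540, 352 and 416 CPM in r-CRMP2 libraries. The first treated library was the highest of its group and still below every untreated library, and the spread of the treated group was wide. SLC38A2 fell from 654 ± 48.2 to 436 ± 95.9 CPM (mean ± SD of 3 libraries each), with a log2 fold change of -0.58 (SE 0.19, edgeR adjusted p = 9.45e-05). Its log2 fold change was -0.75 without r-CRMP2 replicate 1, -0.44 without r-CRMP2 replicate 2 and between these without any other library. A transcript on the opposite strand of SLC38A2 (ENSG00000258096.1) had 0.0746% of its counts in untreated and 0.118% in r-CRMP2 libraries.

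SLC38A1 (chromosome 12, 46576838 to 46663208) encodes SNAT1, a glutamine carrier of the same system. Its level was 457, 437 and 452 CPM in untreated and 361, 301 and 349 CPM in r-CRMP2 libraries. The untreated values were close together and the treated ones all lower. The log2 fold change of SLC38A1 was -0.41 (SE 0.08, edgeR adjusted p = 4.14e-05), between means of 449 ± 10.6 and 337 ± 31.6 CPM (mean ± SD of 3 libraries each). SLC38A5 (chromosome X, 48316920 to 48328644) encodes SNAT5, a carrier of glutamine, asparagine, histidine, serine and glycine. It was at 97.8, 85.2 and 92.3 CPM in untreated and at 74.4, 81.4 and 80.7 CPM in r-CRMP2 libraries. The nearest values of the groups, 85.2 and 81.4 CPM, were close. The log2 fold change of SLC38A5 was -0.22 (SE 0.07, edgeR adjusted p = 0.00981), and it no longer passed without untreated replicate 1 (-0.17, edgeR adjusted p = 0.0582) or without r-CRMP2 replicate 1 (-0.17, adjusted p = 0.0625).

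Per length, the order of the 10 transporters by mean TPM was the same in both groups. SLC7A5 was the most abundant, at 793 ± 30.3 TPM (SD, n = 3) in untreated and 805 ± 86.9 TPM (SD, n = 3) in r-CRMP2 libraries. SLC3A2 followed with 382 and 485 TPM, and SLC38A2 with 326 and 175 TPM. The transcript of the heavy chain was thus less abundant than that of its main light chain in both groups. The middle of the order was SLC1A5 with 150.2 and 101 TPM, SLC38A5 with 112 and 76.7 TPM, SLC38A1 with 109.6 and 65.9 TPM and SLC7A1 with 43.7 and 34.9 TPM. SLC7A6 with 30.1 and 11.6 TPM, SLC7A11 with 15.1 and 4.27 TPM and SLC1A4 with 7.43 and 3.29 TPM were the least abundant. Neighbours in this order overlapped between libraries in 2 places, SLC38A5 and SLC38A1 in untreated cells and SLC7A11 and SLC1A4 in r-CRMP2 cells. TPM is scaled to the whole library and carries no TMM factor, which is why SLC7A5 differs less between the groups in TPM than in CPM.

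Together the 10 transporters had a summed level of 1969 ± 47.6 TPM (SD, n = 3) in untreated and 1762 ± 137 TPM (SD, n = 3) in r-CRMP2 cells. These sums carry no TMM factor, and the factor of every untreated library was larger than that of every r-CRMP2 library. TMM scaling therefore lowers the untreated sum relative to the r-CRMP2 sum. The direction of the difference thus depends on the scaling, and the values do not show that the sum fell. A share of this sum does not depend on the scaling between libraries. SLC3A2 made up 19.0%, 19.8% and 19.4% of it in untreated libraries and 25.4%, 30.4% and 27.1% in r-CRMP2 libraries. SLC7A5 made up 40.4%, 41.0% and 39.3% in untreated and 44.7%, 44.4% and 47.6% in r-CRMP2 libraries. The transcripts of the heavy chain and its most abundant light chain thus took a larger share in every treated library. The SLC38 family went the other way, from 28.3%, 26.6% and 28.5% in untreated to 20.5%, 16.4% and 16.9% in r-CRMP2 libraries, and the SLC1 family went from a mean of 8.01% to 5.92%. Each of these shares gave p = 0.1 in an exact two-sided permutation test, which is the smallest that 3 against 3 libraries allow, so the design could not reach 0.05.

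**Figure D3:**
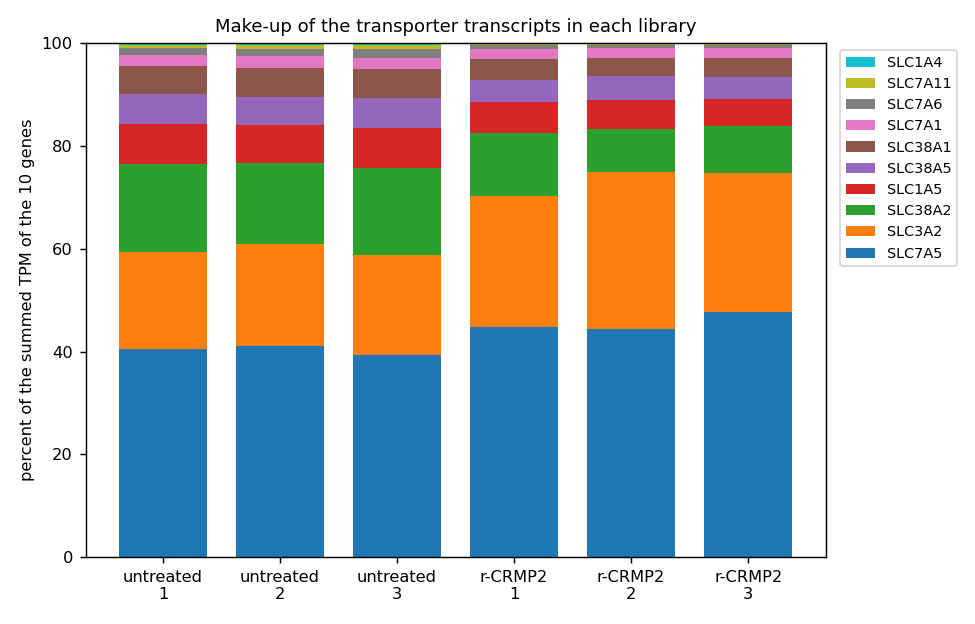
Share of each transporter in the summed TPM of the 10 genes (vertical axis, percent) in each of the 6 libraries, with the most abundant gene in untreated cells at the bottom. The 2 lowest blocks, SLC7A5 and SLC3A2, together fill between 58.7% and 60.9% of the untreated bars and between 70.1% and 74.9% of the r-CRMP2 bars.

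Ratios within a library likewise carry no scaling between libraries, and 9 were compared. There were between 23.2 and 28.3 SLC7A5 transcripts for each SLC7A6 transcript in the 3 untreated libraries and 60.6, 71.5 and 77.2 in r-CRMP2 libraries by TPM. The log2 ratio rose by 1.39 (SE 0.14, n = 3 in each group, exact permutation p = 0.1, adjusted p = 0.15 over the 9 ratios). For SLC7A5 to SLC7A11 the ratio was 60.2, 50.4 and 48.3 in untreated and 154, 218 and 209 in r-CRMP2 libraries, a log2 difference of 1.86 (SE 0.19). The balance among these 3 transcripts thus moved towards SLC7A5 in every treated library, and the proteins were not measured here. SLC7A5 to SLC7A1 differed by 0.34 (SE 0.04) and SLC1A5 to SLC1A4 by 0.61 (SE 0.08) on the log2 scale, both higher with r-CRMP2. SLC7A11 to SLC7A6 was lower, by a log2 difference of -0.46 (SE 0.11). The 3 light chains SLC7A5, SLC7A6 and SLC7A11 summed to 2.24, 2.18 and 2.16 TPM for each TPM of SLC3A2 in untreated libraries and to 1.80, 1.49 and 1.79 in r-CRMP2 libraries, a log2 difference of -0.38 (SE 0.09). These 6 ratios did not overlap between the groups, and each had an exact permutation p of 0.1 and an adjusted p of 0.15.

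Within the SLC38 family the ratios overlapped between the groups. SLC38A2 to SLC38A1 had a log2 difference of -0.19 (SE 0.12, n = 3 in each group, exact permutation p = 0.3, adjusted p = 0.338). SLC38A1 to SLC38A5 differed by -0.20 (SE 0.12, exact permutation p = 0.2, adjusted p = 0.257). SLC38A2 to SLC38A5 differed by -0.39 (SE 0.22, exact permutation p = 0.4, adjusted p = 0.4), with r-CRMP2 library 1 at 2.97, at the level of the untreated libraries, and libraries 2 and 3 at 1.77 and 2.11. These differences depended on single libraries. Without r-CRMP2 replicate 1 they were -0.30, -0.29 and -0.59 in the same order, and without r-CRMP2 replicate 2 they were -0.12, -0.096 and -0.22. With 3 libraries a group, differences of this size within the family were not separable from the spread.

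**Figure D4:**
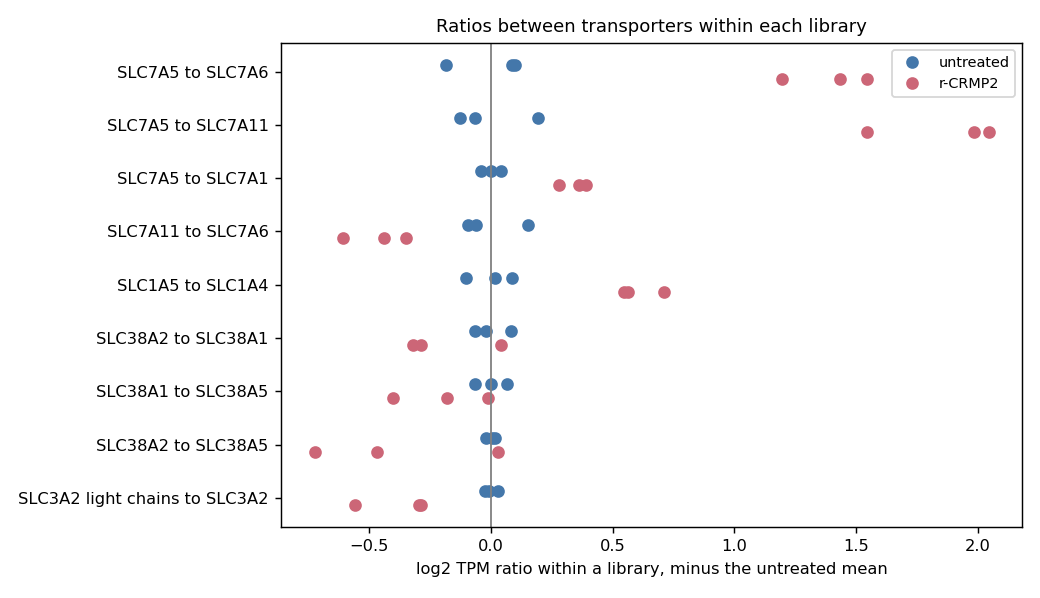
Log2 TPM ratio of 9 pairs or groups of transporters within each library, minus the untreated mean of that ratio (horizontal axis), for untreated (blue) and r-CRMP2 (red) libraries. The points of both groups lie apart in 6 ratios, most widely for SLC7A5 to SLC7A11, and overlap in the 3 ratios of the SLC38 family.

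Of 42 other amino acid transporters of the plasma membrane and the lysosome, 20 passed the filter on low counts. Of these, 1 was higher, 14 were lower and 5 did not pass the test, with a median log2 fold change of -0.60. Over all genes tested, 28.2% were higher and 30.1% lower, with a median of -0.03. This list was also chosen with earlier results known, and no test was made of its shares. The one that rose was SLC6A6, the taurine transporter, named after its values were seen. It went from 637, 505 and 478 CPM in untreated to 909, 815 and 939.7 CPM in r-CRMP2 libraries (log2 fold change 0.72, SE 0.14, edgeR adjusted p = 1.06e-06). SLC43A2, which encodes LAT4, a uniporter of large neutral amino acids that needs no heavy chain, was at 69.0, 73.5 and 74.4 CPM in untreated and 20.8, 22.1 and 22.4 CPM in r-CRMP2 libraries. Its log2 fold change was -1.73 (SE 0.05, edgeR adjusted p = 7.26e-13). SLC7A8, which encodes LAT2, the relative of LAT1 that also pairs with SLC3A2, was rare and fell from 3.78, 4.28 and 3.95 CPM to 0.983, 1.26 and 1.65 CPM, a log2 fold change of -1.61 (edgeR adjusted p = 4.72e-06). SLC38A7, a lysosomal glutamine carrier, and SLC6A9, the glycine transporter GLYT1, had log2 fold changes of -1.41 and -1.08 (edgeR adjusted p = 1.88e-09 and 4.21e-09). All 4 of the 20 genes past both thresholds were thus lower, where 8.86% of all genes were lower and 5.12% higher by that rule. With SLC7A5 higher and SLC7A6, SLC7A8 and SLC43A2 lower, the transcripts for carriers of large neutral amino acids did not move together.

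Of 5 transcription factors linked to these genes, 4 were higher and ATF4 did not pass, beside 28.2% of all genes tested called higher. With library size alone 3 were higher, beside 2171 of all 16222 genes tested. ATF4, which drives the amino acid response mainly through the translation of its mRNA, was at 326, 324 and 335 CPM in untreated and 342, 362 and 326 CPM in r-CRMP2 libraries (log2 fold change 0.07, SE 0.05, edgeR adjusted p = 0.379). With library size alone ATF4 was called lower (-0.25, edgeR adjusted p = 0.000942), so its direction follows from the scaling. MYC, known to raise SLC7A5 and SLC1A5 in other cells, was at 499.8, 498 and 511 CPM in untreated and 772, 862 and 807 CPM in r-CRMP2 libraries (log2 fold change 0.69, SE 0.05, edgeR adjusted p = 1.83e-08). Beside it, SLC7A5 rose and SLC1A5 fell. NFE2L2, which encodes NRF2, a known activator of SLC7A11, had a log2 fold change of 0.23 (edgeR adjusted p = 0.00416), which turned and lost the call with library size alone (-0.084, edgeR adjusted p = 0.268). EPAS1, which encodes HIF-2α, went from 172, 155 and 141 CPM to 321, 326 and 345 CPM (log2 fold change 1.08, SE 0.09, edgeR adjusted p = 2.68e-10), and HIF1A had a log2 fold change of 0.49 (edgeR adjusted p = 2.13e-06).

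Other genes of the amino acid response moved in both directions. Of 28 ATF4-linked genes, 27 were tested, of which 14 were higher, 7 lower and 6 did not pass, with a median log2 fold change of 0.22, beside shares of 28.2% higher and 30.1% lower over all genes tested. The largest rises were in PPP1R15A, which encodes GADD34 (20.2, 26.7 and 29.6 CPM in untreated, 101, 141 and 125 CPM in r-CRMP2 libraries), and in DDIT4, which encodes REDD1, an inhibitor of mTORC1 (1003, 910.3 and 841 CPM in untreated, 2774, 3574 and 3378 CPM in r-CRMP2 libraries). Their log2 fold changes were 2.26 and 1.82 (edgeR adjusted p = 1.34e-11 and 4.3e-12). STC2, a secreted glycoprotein, and CEBPB, a transcription factor, followed with 1.71 and 1.53 (edgeR adjusted p = 4.08e-13 and 1.05e-10). These 4 genes also respond to other signals, hypoxia among them. CHAC1, which degrades glutathione and is a common marker of the ATF4 response, was the only gene of the list lower by both thresholds (log2 fold change -1.32, SE 0.37, edgeR adjusted p = 0.00197) and was named after its values were seen, at between 1.51 and 2.85 CPM in untreated and between 0.610 and 1.17 CPM in r-CRMP2 libraries.

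Of 8 genes for glutathione synthesis and cystine use, the pathways that SLC7A11 feeds, 1 was higher, 4 were lower and 3 did not pass, with a median log2 fold change of -0.19, and the shares over all genes tested were again 28.2% higher and 30.1% lower. CHAC2, another enzyme that degrades glutathione, was the one past both thresholds, with a fall from 8.33 ± 0.714 to 3.46 ± 0.333 CPM (mean ± SD of 3 libraries each) and a log2 fold change of -1.26 (edgeR adjusted p = 6.29e-07). The other genes called in this list were named after their values were seen. TXNRD1, the cytosolic thioredoxin reductase, had a log2 fold change of -0.84, GCLM, the modifier subunit of glutamate-cysteine ligase, of -0.40, and GSR, glutathione reductase, of -0.33 (edgeR adjusted p = 1.67e-09, 2.57e-05 and 0.00016). GPX4, which reduces lipid peroxides with glutathione, rose by a log2 fold change of 0.49 (edgeR adjusted p = 2.61e-06). SLC7A11 thus fell beside 4 of these 8 genes. Of 28 genes by which mTORC1 senses amino acids, 27 were tested, of which 6 were higher, 8 lower and 13 not past the test, with a median of -0.02 and log2 fold changes between -0.89 and 0.69, so these shares were near or below the 28.2% and 30.1% of all genes tested.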

How the data were processed

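The labels give Trizol for RNA extraction and the paper's methods a purification kit, and which was used is not settled here. Polyadenylated RNA was made into libraries with a NEBNext Ultra kit, which does not mark strand. HISAT2, FastQC, DESeq2 and hg19 are named in the submitters' processing notes. The counting tool, the annotation and the versions are not given in the sources used here. For each library the authors deposited counts per gene without normalization, and deposited TPM values computed from the counts and gene lengths. The groups follow the treatment labels.

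The counts of 44591 genes were scaled by TMM and compared by the quasi-likelihood test of edgeR (version 4.0.16, with limma 3.58.1 in R 4.3.3). It was fitted on the 16222 genes that its low-count filter left, with Benjamini-Hochberg adjustment over all of them. The thresholds were an adjusted p-value under 0.05 and, as a second rule, a log2 fold change beyond 1. Standard errors come from the spread of log2 CPM with a prior count of 2. Ratios and shares of TPM were compared with exact two-sided permutation tests (scipy 1.17.1), with the Benjamini-Hochberg adjustment over 9 ratios.

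The transporters and the lists were chosen with earlier results of these data known. Beside the 10 transporters, genes were named as transcription factors of the list, as genes that overlap a transporter or as its pseudogene copies, and as up to 4 rises and 4 falls per list among genes past both thresholds whose normalized count averaged at least 50. Upstream windows were RefSeq sequence of GRCh38.p14, and shared transcript sequence of at least 150 bases and 95% identity was searched with blastn 2.17.0 in GENCODE transcripts. The alternatives were library size alone, RLE size factors, DESeq2 1.42.0, a minimum of 10 counts in every library and no filter. Further ones were the replicate number as a block, leaving out each library, 1 count added to the ratios and counts in place of TPM. For the ratios, the median difference between same-numbered libraries was taken in place of a block.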

Additional observations from a re-analysis of the deposited data

How the results depend on the processing

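Most results kept their direction and their side of the threshold. With library size alone, 1 transporter was called higher in place of 2, because SLC7A5 did not pass, and 8 were lower, with 3 past both thresholds. Of all 16222 genes tested by that scaling, 2171 were higher and 8449 lower, with 3042 past both thresholds. The number past both thresholds lay between 1 and 2 when each library was left out in turn. It was 1 without untreated replicate 3 and without r-CRMP2 replicate 2, where SLC7A6 no longer passed the fold change threshold. The number called lower lay between 6 and 7. SLC7A1 (-0.00051) had log2 fold changes of 0.0198 with RLE size factors, 0.0199 with DESeq2 and between -0.040 and 0.064 with 1 library left out. With library size alone, ATF4 turned to -0.25, NFE2L2 to -0.084 and ENSG00000258096.1 to -0.22, and the last lay between -0.36 and 0.42 with 1 library left out. The cause was not tested.

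With the replicate number as a block, 2 transporters were higher, 7 lower and 2 past both thresholds, and no call of a named gene changed. Deviations of same-numbered libraries had correlations across genes of -0.02, 0.0038 and -0.03, so the numbers gave no pairing. For the log2 ratio of SLC7A5 to SLC7A6, the median difference between same-numbered libraries was 1.35, beside a difference of 1.39 between the group means. With 3 libraries per group, the permutation tests of shares and ratios could not reach 0.05. The rarest transporter, SLC1A4, had between 144 and 399 counts per library. The standard error of its log2 fold change was 0.09, against 0.19 for the more abundant SLC38A2.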
